A study of Mus musculus with 28 samples.

Results

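The glucocorticoid receptor (Nr3c1), the mineralocorticoid receptor (Nr3c2) and 6 genes that respond to the hormone-bound receptor (Fkbp5, Tsc22d3, Sgk1, Klf9, Per1 and Errfi1) were followed in microglia and astrocytes sorted from the same mouse brains. They are 8 of the 40481 mouse genes in the count table, and all 8 passed the filter on low counts in both sorts. The genes were chosen by name and with earlier results of these data known, so they were also selected on measured values, among them the lower Fkbp5 level in microglia of APPPS1 mice than of amyloid-free mice when neither group carried Cre. The microglia comparisons of amyloid are therefore given as descriptions and support nothing. The same holds in microglia for Cre in amyloid-free mice and for the difference between the Cre effects, which rest on the same libraries. The choice set no threshold on a measured value. Genotype groups of the 8 genes said not to overlap are a description, since the share of all genes without overlap was not counted.

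Every mouse was APOE4fl/fl, that is, homozygous for human APOE4 flanked by loxP sites, the controls included. APPPS1 mice carry transgenes expressed in neurons and form amyloid plaques, and ALDH1L1-CreERT is a tamoxifen-dependent Cre driven by an astrocyte promoter. All groups received tamoxifen at 3.8 months of age (2 doses of 100 mg per kg), and 10 days later CD11b-positive microglia and ACSA-2-positive astrocytes were sorted from cortex, hippocampus and thalamus. The values below come from 4 APPPS1 Cre-positive, 5 APPPS1 Cre-negative, 2 amyloid-free Cre-positive and 2 amyloid-free Cre-negative mice, each with a library of both sorts, 26 in all. The series text gives 4 mice for each APPPS1 group, and the sample labels, which were followed, give 5. The labels give no sex, time of day or hormone level.

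Both libraries of the fifth APPPS1 Cre-positive mouse, number 459, held the genes of the other sort and were left out: summed microglia markers reached 149 CPM (counts scaled to a library total of 1000000 mouse-gene counts) in its library labelled microglia and 39746 CPM in its library labelled astrocyte. Its 2 libraries also crossed over in the genes described here, with Klf9 at 118 CPM in the library labelled microglia and 1.07 CPM in the one labelled astrocyte. Over all 28 libraries of the series, total counts ran from 26162612 to 63802747. In these libraries Xist was at 71.7 to 407 CPM. The Y-linked genes Ddx3y and Eif2s3y were at most 0.151 and 0.115 CPM, the pattern of female mice. In the 26 libraries used, the 12 microglia markers summed to 19395 to 45516 CPM in microglia and 103 to 154 CPM in astrocytes. The 12 astrocyte markers summed to 136 to 402 CPM in microglia and 32101 to 47087 CPM in astrocytes. Human APOE, the gene Cre removes, was at 507 to 926 CPM in astrocytes of the 6 Cre-positive mice and at 1052 to 1864 CPM in those of the 7 Cre-negative mice, without overlap, so it was lower but still present. The astrocyte sort also held oligodendrocyte RNA, with 10 markers summing to 2790 to 23734 CPM. In sorted bulk RNA, fewer cells of a type and less RNA per cell cannot be told apart.

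Glucocorticoids, corticosterone in mice, cross the cell membrane and bind the receptor encoded by Nr3c1, which then leaves its chaperone complex, enters the nucleus and binds DNA at glucocorticoid response elements. The mineralocorticoid receptor binds the same hormone with higher affinity and acts on many of the same elements. Among the target genes, Fkbp5 encodes a co-chaperone that lowers the receptor's affinity for hormone, Tsc22d3 encodes the anti-inflammatory protein GILZ, and Per1 links the daily hormone rhythm to the circadian clock. In glia these genes are used as readouts of stress hormone signalling.

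Microglia and astrocytes held Nr3c2 and most of the response genes at different levels. Per kilobase of exon, so that genes can be set beside each other, Sgk1 had the highest level in microglia and Tsc22d3 in astrocytes. In microglia the order by mean was Sgk1 (351 CPM per kb), Tsc22d3 (94.9), Nr3c1 (14.1), Errfi1 (6.52), Fkbp5 (5.90), Per1 (5.01), Nr3c2 (0.888) and Klf9 (0.555). In astrocytes it was Tsc22d3 (267 CPM per kb), Sgk1 (36.4), Klf9 (25.7), Nr3c1 (17.1), Nr3c2 (4.57), Per1 (4.15), Errfi1 (3.88) and Fkbp5 (0.315). Astrocyte Sgk1 spread from 3.71 to 128 CPM per kb, and its place rests on a few high mice: its median was 17.1 CPM per kb, under those of Klf9 (25.2) and Nr3c1 (17.5). Several neighbours overlapped across mice. In microglia these were Nr3c1, Errfi1, Fkbp5 and Per1, and Nr3c2 and Klf9, and in astrocytes Sgk1, Klf9 and Nr3c1, and Nr3c2, Per1 and Errfi1.

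**Figure D1:**
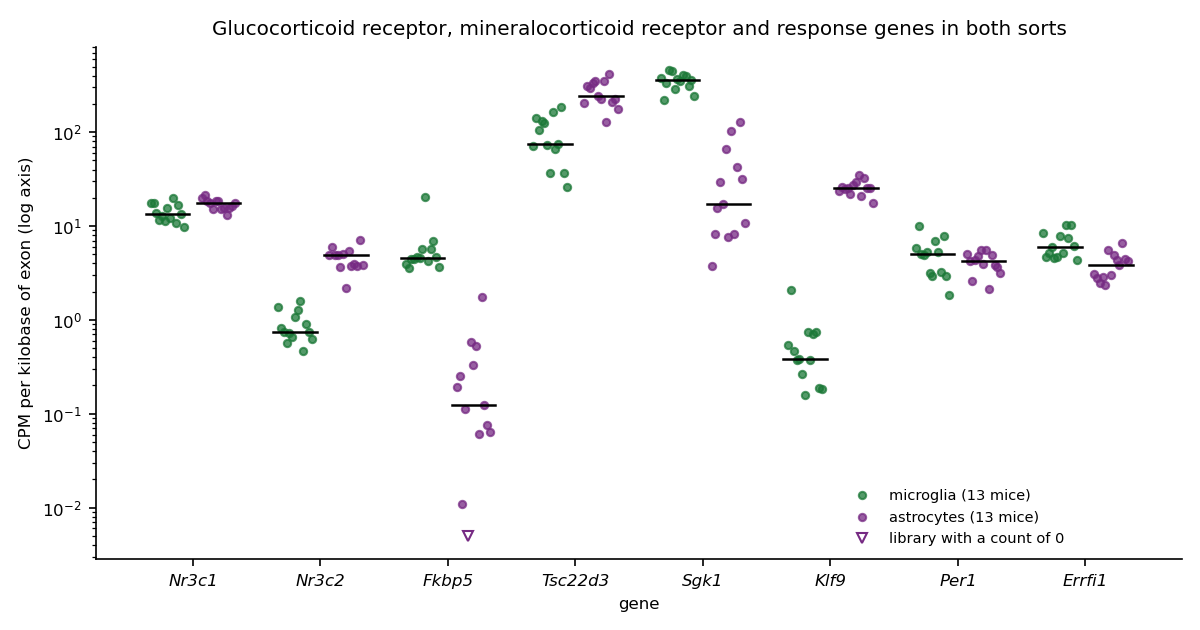
Level of each gene in CPM per kilobase of exon, on a log axis, in microglia (green, left of each pair) and astrocytes (purple, right), 1 point a mouse over 13 mice, with the median as a bar; the open triangle marks the astrocyte library with a Fkbp5 count of 0 at the axis floor. Fkbp5 and Sgk1 stand higher in microglia, with medians of 42.7 and 1749 CPM, and Klf9 and Nr3c2 stand lower, with medians of 1.86 and 4.79 CPM.

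All 8 genes passed the comparison of microglia with astrocytes (edgeR quasi-likelihood F test over 26 libraries, Benjamini-Hochberg adjusted p under 0.05), in which 76.5% of the 21612 genes tested passed, so a pass alone sets no gene apart and the sizes carry the result. Of the 8, 5 were higher and 3 lower in microglia; without TMM scaling, which shifted the median of all genes by -0.46 on the log2 scale, 3 were higher and 4 lower. Fkbp5 ran from 34.0 to 192 CPM in microglia, with a median of 42.7, and from 0 to 16.8 CPM in astrocytes, with a median of 1.16. The lowest microglia library lay above the highest astrocyte library, and the fitted difference was 5.22 ± 0.47 (log2, SE; adjusted p = 8.4e-10). Sgk1, a kinase that controls ion channels and transporters, ran from 1081 to 2238 CPM in microglia (median 1749) and from 18.2 to 627 CPM in astrocytes (median 84.0), a log2 difference of 4.21 ± 0.32 (adjusted p = 3.8e-11). Klf9, a zinc finger repressor induced by glucocorticoids, had the opposite pattern. It ran from 0.764 to 10.1 CPM in microglia (median 1.86) and from 83.8 to 168 CPM in astrocytes (median 121), a log2 difference of -5.02 ± 0.27 (adjusted p = 1.0e-13). Its mean microglia level was 0.022 of its mean astrocyte level.

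The remaining target genes differed less. Tsc22d3 was lower in microglia, at 112 to 803 CPM (median 325), than in astrocytes, at 557 to 1826 CPM (median 1058), with a log2 difference of -0.95 ± 0.27 (adjusted p = 0.0027). Errfi1, a feedback inhibitor of the EGF receptor, was higher in microglia, at 15.7 to 36.9 CPM (median 21.2), than in astrocytes, at 8.44 to 23.7 CPM (median 13.9), with a log2 difference of 1.24 ± 0.18 (adjusted p = 1.1e-06). Per1 overlapped widely, at 10.4 to 56.6 CPM in microglia (median 28.0) and 11.9 to 31.6 CPM in astrocytes (median 24.0). Its log2 difference was 0.79 ± 0.17 (adjusted p = 0.00029), and without TMM scaling it was 0.33 with an adjusted p of 0.095.

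Of the receptors, Nr3c2 separated the sorts and Nr3c1 did not. Nr3c2 ran from 3.02 to 10.2 CPM in microglia (median 4.79) and from 14.1 to 46.1 CPM in astrocytes (median 31.5). The groups did not overlap, and the log2 difference was -1.87 ± 0.19 (adjusted p = 7.5e-09). Nr3c1 ran from 74.6 to 152 CPM in microglia (median 104) and from 102 to 163 CPM in astrocytes (median 134), and its direction depended on the scaling. With TMM the fitted difference was 0.20 ± 0.09 (adjusted p = 0.043). Without TMM it was -0.26 (adjusted p = 0.025), and with the mouse as a replicate block it was 0.19 with an adjusted p of 0.066. No direction between the sorts is given for Nr3c1. With strand use of the counting not stated, up to 247 exonic bases of Nr3c2 that overlap the antisense gene Gm10649 could hold reads of either gene, but Gm10649 had at most 30 counts in any library.

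The chaperones, coregulators and enzymes around the receptors passed about as often as the 76.5% of all genes. Of 18 receptor chaperones and coregulators, 10 were higher in microglia and 3 lower. The coactivators Ncoa3 (2.45 ± 0.13) and Ncoa1 (-2.10 ± 0.09) went in opposite directions on the log2 scale. Of 6 genes of steroid metabolism and export, 2 were higher in microglia and 3 lower. Hsd11b1, the enzyme that regenerates active glucocorticoid from its inert 11-keto form, had a log2 difference of -4.18 ± 0.47 (adjusted p = 2.9e-08) and lay at 0.787 to 45.6 CPM in microglia and 164 to 313 CPM in astrocytes. Srd5a1, a 5-alpha reductase that inactivates corticosterone, had a log2 difference of -4.34 ± 0.47. Of 30 further genes induced by glucocorticoids, 16 were higher in microglia and 13 lower, with a median log2 difference of 0.43 against -0.18 over all genes tested. The widest were Pdk4 (-9.82 ± 0.30) and Il1r2, a decoy receptor for interleukin 1 (8.01 ± 1.54). Of 17 clock genes other than Per1, 1 was higher in microglia, the repressor Bhlhe41 (1.57 ± 0.15), and 15 were lower, among them Nr1d1 (-4.99 ± 0.27) and Cry2 (-4.58 ± 0.18).

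On GRCm38, by GENCODE M21, Fkbp5 spans chr17:28399094-28517527 and Tsc22d3 chrX:140539528-140600659, both on the minus strand. Sgk1 spans chr10:21882184-21999903, Klf9 chr19:23141226-23168134, Per1 chr11:69095217-69109960, Errfi1 chr4:150853919-150868892 and Nr3c2 chr8:76899442-77245012, all on the plus strand. The counts of a gene cover its exons. The promoters of 7 of the genes were read from RefSeq, on build GRCm38.p6, as 16 windows from 250 bases before to 50 bases after an annotated start. Shown are the only window with a full glucocorticoid response element, the only Tsc22d3 window with a match, and the Fkbp5 window, since Fkbp5 is described at length below. The half-element searched was AGAACA, the full glucocorticoid response element was AGAACA, any 3 bases and TGTTCT, and the E-box of clock factors CACGTG, each on both strands. Capitals mark these matches, and overlapping matches run together.
Sgk1, chr10:21993640-21993939, plus strand: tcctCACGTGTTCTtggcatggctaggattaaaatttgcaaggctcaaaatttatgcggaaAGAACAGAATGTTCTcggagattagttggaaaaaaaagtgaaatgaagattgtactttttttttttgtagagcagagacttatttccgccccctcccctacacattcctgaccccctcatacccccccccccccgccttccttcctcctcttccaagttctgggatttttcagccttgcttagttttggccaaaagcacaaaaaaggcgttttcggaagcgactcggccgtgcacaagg
Tsc22d3, chrX:140600473-140600772, minus strand: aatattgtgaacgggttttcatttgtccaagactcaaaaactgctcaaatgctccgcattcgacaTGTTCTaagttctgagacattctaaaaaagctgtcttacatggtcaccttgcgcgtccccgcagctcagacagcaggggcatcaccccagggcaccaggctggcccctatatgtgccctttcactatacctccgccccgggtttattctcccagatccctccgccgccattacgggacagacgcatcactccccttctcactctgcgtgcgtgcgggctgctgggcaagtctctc
Fkbp5, chr17:28486100-28486399, minus strand: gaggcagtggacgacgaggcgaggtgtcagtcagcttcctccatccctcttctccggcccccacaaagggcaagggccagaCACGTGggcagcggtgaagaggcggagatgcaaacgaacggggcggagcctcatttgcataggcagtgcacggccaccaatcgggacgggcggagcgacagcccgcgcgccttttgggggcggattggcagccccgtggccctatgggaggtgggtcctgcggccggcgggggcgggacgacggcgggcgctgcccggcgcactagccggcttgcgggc
The Sgk1 window held the full element at bases 62 to 76, which begins 189 bases before the start, and near its 5′ end an E-box and a half-element that overlap each other. The full element contains a half-element on each strand, which are counted as half-elements too. The full element was in 3 of 32851 windows of all genes (0.00913%) and in 1 of the 16 windows here. The half-element was in 19% of all windows and in 4 of the 16, which were 3 Sgk1 windows and the Tsc22d3 window shown. The E-box was in 7.15% of all windows and in 3 of the 16, those of Fkbp5 and Sgk1 shown and 1 of Per1. A match is a string of letters in this window and says nothing of binding.

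In microglia, Nr3c2 overlapped between all genotype groups, and Nr3c1 between some of them. Nr3c1 was at 89.5, 87.7, 118 and 82.4 CPM in APPPS1 Cre-positive mice and at 106, 97.3, 152, 104 and 74.6 CPM in APPPS1 Cre-negative mice. It was at 135 and 134 CPM in amyloid-free Cre-positive mice and at 94.3 and 129 CPM in amyloid-free Cre-negative mice. The APPPS1 Cre-positive mice all lay under both amyloid-free Cre-positive mice, which in turn lay above both amyloid-free Cre-negative mice. The APPPS1 groups overlapped each other, as did the Cre-negative groups. Nr3c2 averaged 4.47 ± 1.68 CPM (SD, n = 4) in APPPS1 Cre-positive and 5.70 ± 2.56 (n = 5) in APPPS1 Cre-negative mice, and 7.06 ± 2.57 and 7.11 ± 1.75 CPM (n = 2 each) in amyloid-free Cre-positive and Cre-negative mice.

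Fkbp5 in microglia was nearly flat apart from the amyloid-free Cre-negative pair. It was at 42.1, 42.7, 54.3 and 53.4 CPM in APPPS1 Cre-positive mice and at 42.1, 44.2, 40.4, 44.5 and 34.4 CPM in APPPS1 Cre-negative mice. It was at 37.1 and 34.0 CPM in amyloid-free Cre-positive mice, and at 192 CPM (mouse 465) and 64.9 CPM (mouse 759) in amyloid-free Cre-negative mice. Both amyloid-free Cre-negative mice lay above every other mouse. The fitted log2 change with amyloid was -1.55 ± 0.27 in Cre-negative mice, -0.53 without mouse 465 and -2.14 without mouse 759. In Cre-positive mice it was 0.62 ± 0.31, where the APPPS1 mice all lay above the amyloid-free mice. Averaged over Cre it was -0.47 ± 0.20, and 0.08 without mouse 465. The log2 change with Cre in amyloid-free mice, which rests on the same 2 mice, was -1.96 ± 0.36. Markers of border macrophages, which the CD11b sort also takes up, had the same 2 mice highest, with 10 markers summing to 907 CPM in mouse 465 and 741 CPM in mouse 759 against 251 to 623 CPM in the other 11 mice. All 10 had negative changes with amyloid in Cre-negative mice (median -1.03; 0 passed, with 9 at an unadjusted p under 0.05, DESeq2 called 4 and voom 0) and with Cre in amyloid-free mice (median -1.86; 1 passed, Cbr2, at -2.62 ± 0.34). In Cre-positive mice 3 passed higher and 0 lower with amyloid. The part of these cells in the Fkbp5 values was not tested.

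**Figure D2:**
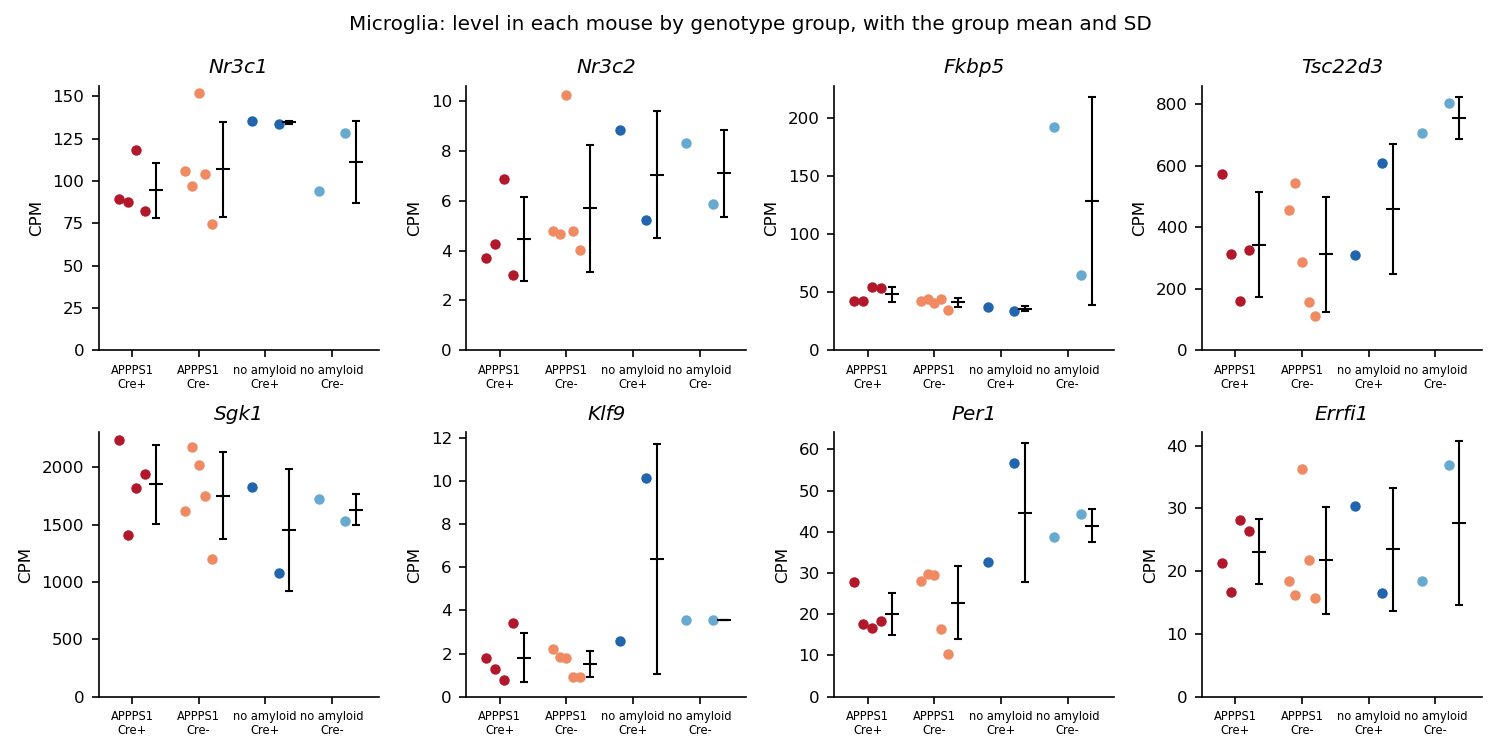
CPM of each gene in microglia, 1 point a mouse, in APPPS1 Cre-positive (4 mice), APPPS1 Cre-negative (5), amyloid-free Cre-positive (2) and amyloid-free Cre-negative (2) mice, with the group mean and SD in black. Fkbp5 is at 192 and 64.9 CPM in the amyloid-free Cre-negative mice and between 34.0 and 54.3 CPM in all others; Per1 is at most 29.8 CPM in APPPS1 mice and at least 32.7 CPM in amyloid-free mice.

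Tsc22d3, Per1 and Klf9 were lower in APPPS1 than in amyloid-free microglia on average. Tsc22d3 was at 572, 313, 159 and 325 CPM in APPPS1 Cre-positive mice and at 456, 545, 287, 158 and 112 CPM in APPPS1 Cre-negative mice. It was at 310 and 610 CPM in amyloid-free Cre-positive mice and at 706 and 803 CPM in amyloid-free Cre-negative mice. Levels spread widely inside each group but the amyloid-free Cre-negative pair, and only within Cre-negative mice did the APPPS1 group lie wholly under the amyloid-free group, with a log2 change of -1.19 ± 0.51.

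Per1 was at 27.7, 17.6, 16.7 and 18.3 CPM in APPPS1 Cre-positive mice and at 28.0, 29.8, 29.5, 16.4 and 10.4 CPM in APPPS1 Cre-negative mice. It was at 32.7 and 56.6 CPM in amyloid-free Cre-positive mice and at 38.8 and 44.3 CPM in amyloid-free Cre-negative mice. The 9 APPPS1 mice all lay under the 4 amyloid-free mice, with a log2 change of -0.87 ± 0.24 averaged over Cre. The share of all genes that separate these mice was not counted, so nothing is read from the separation. Klf9 was scarce in microglia, at 27 to 265 counts a library, and averaged 1.66 ± 0.83 CPM (SD, n = 9) in APPPS1 and 4.96 ± 3.48 CPM (n = 4) in amyloid-free mice, with a log2 change of -1.36 ± 0.40. Mouse 26, amyloid-free and Cre-positive, had the highest levels of Klf9 (10.1 CPM) and Per1 (56.6 CPM). Its microglia library stood apart, with the lowest total count, summed microglia markers of 19395 CPM against 37610 to 45516 CPM in the other 12, a mitochondrial share of 3.18% against 0.960 to 1.57%, and the highest sum of monocyte and neutrophil markers, 7599 CPM against 248 to 6561 CPM. Without it the change averaged over Cre was -0.70 for Klf9 and -0.63 for Per1, and neither passed. Klf9 also did not pass without mouse 443, 447, 458, 460, 465, 759, 774 or 779, and Per1 without mouse 458, 460, 465, 475, 759 or 774.

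Sgk1 and Errfi1 showed no such split. Sgk1 averaged 1797 ± 345 CPM (SD, n = 9) in APPPS1 and 1543 ± 332 CPM (n = 4) in amyloid-free mice, and Errfi1 22.3 ± 6.85 and 25.6 ± 9.72 CPM, both with overlapping groups. By count, the amyloid comparison averaged over Cre passed for 2 of the 8 genes, Klf9 and Per1, both lower, beside 9.58% of 17593 genes tested. It passed for 1 gene, Fkbp5, in Cre-negative mice, beside 0.313% of genes. It passed for 0 in Cre-positive mice, beside 7.05% of genes, where 2 genes had an unadjusted p under 0.05 and DESeq2 and limma voom also called 0. The selection used these contrasts, so nothing is read from the counts.

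Other cells' RNA also differed between APPPS1 and amyloid-free microglia, mostly in Cre-positive mice. Averaged over Cre, of 12 endothelial markers 0 passed higher and 6 lower in APPPS1 mice. Their sum was 43.4 to 99.1 CPM in APPPS1 mice. It was 168 and 358 CPM in amyloid-free Cre-positive mice, with mouse 26 the highest, and 76.8 and 93.7 CPM in amyloid-free Cre-negative mice. Of 12 astrocyte markers 7 passed lower and 1 higher in the same comparison, which was Gfap. Their sum was 136 to 246 CPM in APPPS1 and 279 to 402 CPM in amyloid-free mice, at most 0.984% of its mean in the astrocyte sort. Within Cre-negative mice 0 of either list passed, with medians of -0.25 and -0.49, and 8 of 10 oligodendrocyte markers had positive changes. Within Cre-positive mice 8 endothelial and 9 astrocyte markers passed lower and 0 higher, beside 7.05% of genes. Klf9 in microglia ran from 0.618% to 8.20% of its mean in the astrocyte sort. A covariate was made from the mean log2 level of endothelial, pericyte and smooth muscle, oligodendrocyte, neuron and astrocyte markers. It left out the markers of border macrophages, monocytes and neutrophils. With this covariate, the Per1 and Klf9 changes with amyloid in Cre-positive mice turned to 0.29 and 0.39. The part of other cells' RNA in the Klf9 and Per1 values was not tested further.

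Genes of the wider pathway were counted in the same amyloid comparison of microglia, averaged over Cre. The lists here and in the next paragraph were also chosen with earlier results of these data known. Their counts and adjusted p are descriptions and support nothing. Of 29 further glucocorticoid-induced genes tested, 1 was higher and 6 lower in APPPS1 mice, with a median log2 change of -0.33 against -0.05 over all genes. The higher one, named after its value was seen, was the metallothionein Mt1 (0.70 ± 0.15, adjusted p = 0.013). The lower ones included Pdk4, a kinase that inhibits pyruvate dehydrogenase (-4.21 ± 1.09, adjusted p = 0.035), whose microglial level lay far under that in astrocytes. They also included Nedd9, a focal adhesion scaffold (-1.28 ± 0.33, adjusted p = 0.030), the transglutaminase Tgm2 (-0.99 ± 0.23, adjusted p = 0.021) and the transcription factor Cebpd (-0.98 ± 0.26, adjusted p = 0.032). Of 18 chaperones and coregulators 4 were lower, led by Hsp90aa1, the inducible HSP90 that holds the unliganded receptor (-1.01 ± 0.19, adjusted p = 0.0084). It was at 127 to 290 CPM in APPPS1 mice, and at 543 and 767 CPM in amyloid-free Cre-positive and 180 and 297 CPM in amyloid-free Cre-negative mice. Only the amyloid-free Cre-positive pair lay above all other mice.

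Of 16 cytokine genes that glucocorticoids repress, 5 were higher in APPPS1 microglia and 0 lower, beside 9.58% of all genes called in either direction, with 9 positive changes and a median of 0.38. In Cre-negative mice 1 passed, Csf1, and the median was 0.11. Those higher averaged over Cre included the growth factor Csf1 (2.46 ± 0.28, adjusted p = 0.00070) and the chemokine Ccl3 (1.43 ± 0.22, adjusted p = 0.0028). Csf1, Ccl3 and Ccl4 are also known as genes of microglia around plaques. Csf1 was at 142 to 325 CPM in APPPS1 mice and at 37.7 to 54.2 CPM in amyloid-free mice, without overlap, though the share of all genes that separate was not counted. Of 16 clock genes 0 passed by edgeR and by voom, with 3 at an unadjusted p under 0.05, and DESeq2 called 1. Clock (-0.55 ± 0.20) and Hlf (-0.81 ± 0.29) had the lowest p, with adjusted p of 0.089 and 0.091. Immediate early genes, which respond to tissue dissociation and include some that glucocorticoids also act on, were higher for 1 and lower for 6 of 22, with Klf2 at -1.92 ± 0.34 (adjusted p = 0.0057). Their sum was 3329 to 10925 CPM in APPPS1 and 7018 to 9738 CPM in amyloid-free microglia.

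Cre in APPPS1 mice came with no detectable change of these genes in microglia. Of the 8 genes 0 passed between Cre-positive and Cre-negative APPPS1 mice (edgeR), 0 had an unadjusted p under 0.05, and DESeq2 and limma voom also called 0, beside 0.00568% of all genes. The fitted log2 changes ran from -0.35 ± 0.30 for Nr3c2 to 0.25 ± 0.46 for Klf9. Fkbp5 changed by 0.21 ± 0.23, Tsc22d3 by 0.16 ± 0.43 and Sgk1 by 0.08 ± 0.19. Of 29 further glucocorticoid-induced genes 0 passed by edgeR, DESeq2 and voom, with 2 at an unadjusted p under 0.05 and a median log2 change of 0.05. The 2 were those of the scavenger receptor Cd163 (0.93 ± 0.32) and of Gadd45b (0.53 ± 0.21), both with an adjusted p of 1. In amyloid-free microglia 0 of 8 passed with Cre, beside 0.0114% of genes, with 1 at an unadjusted p under 0.05, 1 call by DESeq2 and 0 by voom. The difference between the 2 Cre effects passed for 0 of 8, beside 0% of genes, again with 1 at an unadjusted p under 0.05, 1 call by DESeq2 and 0 by voom, and was 2.17 ± 0.42 for Fkbp5. Both comparisons rest on the amyloid-free libraries of the selection, so they are descriptions and support nothing.

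In astrocytes, Fkbp5 was scarce, and it was higher in every Cre-positive than in every Cre-negative APPPS1 mouse. It was at 1.075, 5.46, 3.09 and 16.8 CPM in APPPS1 Cre-positive mice (443, 458, 460 and 475), and at 0.104, 0, 0.580, 0.724 and 0.602 CPM in APPPS1 Cre-negative mice. In counts these were 46 to 727 reads and 0 to 30 reads. It was at 1.81 and 2.41 CPM in amyloid-free Cre-positive mice and at 4.97 and 1.16 CPM in amyloid-free Cre-negative mice. All 4 Cre-positive APPPS1 mice lay above all 5 Cre-negative ones, which were the lowest of the 13 mice. The share of all genes that separate these 2 groups was not counted, so the separation is a description.

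The fitted Fkbp5 change with Cre in APPPS1 astrocytes was 3.98 ± 0.95 (log2, SE), which did not pass over all genes with edgeR (adjusted p = 0.64). DESeq2 called it (adjusted p = 0.00228), and voom did not (adjusted p = 0.62). Over these 9 mice alone an exact two-sided permutation test of log2(CPM + 1), run for all 8 genes, gave p = 0.0159, unadjusted and the smallest this design can give. Without mouse 475 the change was 2.93, and without each other mouse in turn it was between 3.66 and 4.33. Of the 8 genes 0 passed in this comparison by edgeR and by voom, with 3 at an unadjusted p under 0.05, and DESeq2 called 1, beside 0.00997% of genes.

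**Figure D3:**
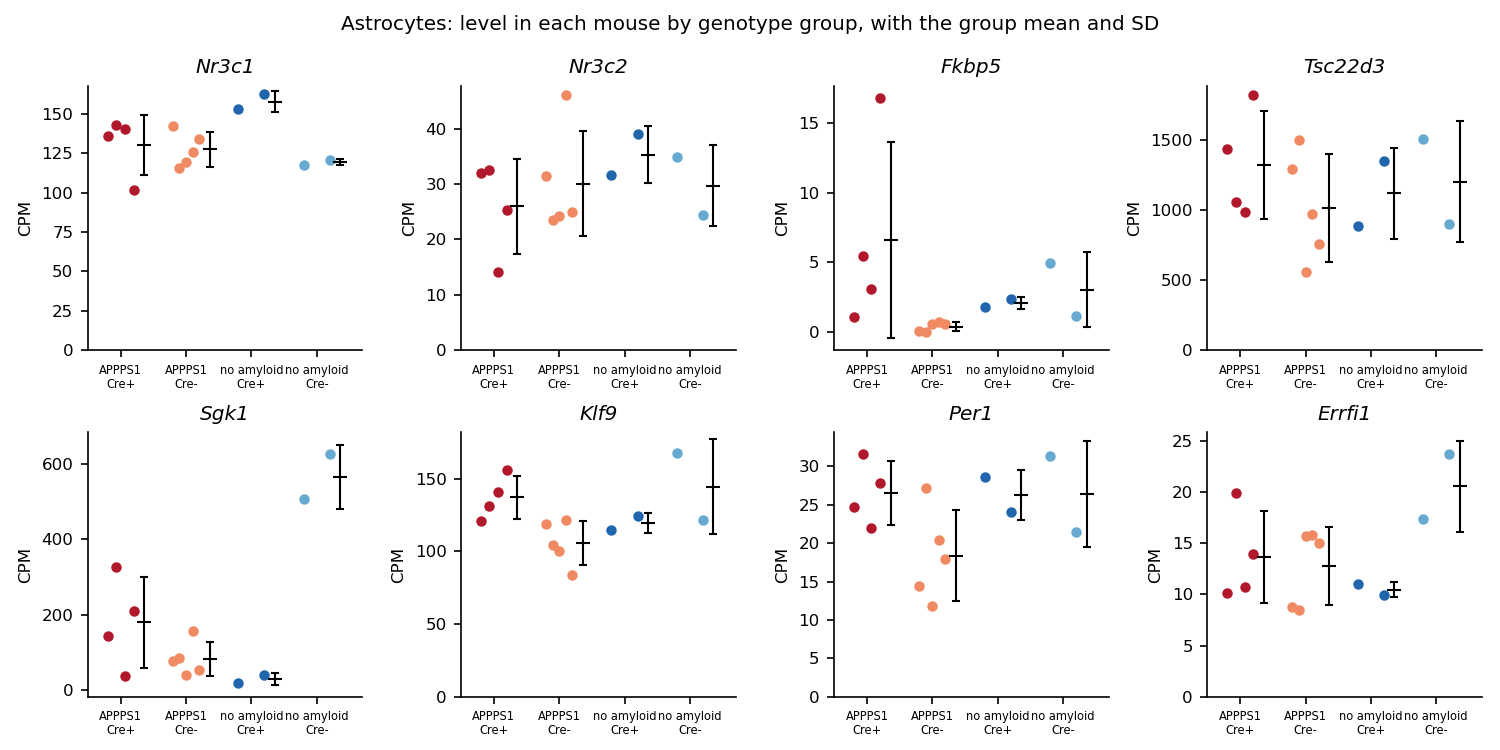
CPM of each gene in astrocytes, 1 point a mouse, in APPPS1 Cre-positive (4 mice), APPPS1 Cre-negative (5), amyloid-free Cre-positive (2) and amyloid-free Cre-negative (2) mice, with the group mean and SD in black. Fkbp5 is between 1.075 and 16.8 CPM in APPPS1 Cre-positive and at most 0.724 CPM in APPPS1 Cre-negative mice; Sgk1 is at 507 and 627 CPM in the amyloid-free Cre-negative mice and at most 325 CPM in all others.

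The other genes overlapped between the Cre groups of APPPS1 astrocytes. This too is a description, since the share of all genes that separate was not counted. Klf9 was at 121, 131, 141 and 156 CPM in APPPS1 Cre-positive mice and at 119, 104, 100.5, 122 and 83.8 CPM in APPPS1 Cre-negative mice, with a log2 change of 0.33 ± 0.13 (adjusted p = 0.71). Per1 averaged 26.5 ± 4.16 CPM (SD, n = 4) in APPPS1 Cre-positive and 18.4 ± 5.93 CPM (n = 5) in APPPS1 Cre-negative mice, with a log2 change of 0.47 ± 0.22 (adjusted p = 0.75). Tsc22d3 was at 1438, 1058, 985 and 1826 CPM in APPPS1 Cre-positive mice and at 1297, 1506, 557, 977 and 760 CPM in APPPS1 Cre-negative mice, with overlap. The same exact test gave unadjusted p of 0.0317 for Klf9 and 0.0635 for Per1, and of 0.254 to 0.873 for the other 5 genes. Nr3c1 averaged 130 ± 19.2 and 127 ± 11.0 CPM, Nr3c2 26.0 ± 8.58 and 30.1 ± 9.50 CPM and Errfi1 13.7 ± 4.49 and 12.7 ± 3.81 CPM in APPPS1 Cre-positive and Cre-negative mice.

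Of 30 further glucocorticoid-induced genes tested in APPPS1 astrocytes 0 passed with Cre by edgeR and by voom, with 6 at an unadjusted p under 0.05, and DESeq2 called 1. There were 22 positive changes and a median log2 change of 0.18 against -0.00 over all genes. The 2 of lowest p were Plin4, a lipid droplet coat protein (2.59 ± 0.53, adjusted p = 0.57), and Hif3a, a regulator of the hypoxia response (1.34 ± 0.41, adjusted p = 0.70). Plin4 was at 5.84, 20.9, 3.23 and 19.1 CPM in APPPS1 Cre-positive mice and at 3.29, 0.998, 2.23, 1.28 and 1.91 CPM in APPPS1 Cre-negative mice. Hif3a was at 19.5, 62.1, 45.3 and 130 CPM in APPPS1 Cre-positive mice and at 32.7, 20.0, 16.1, 24.1 and 28.6 CPM in APPPS1 Cre-negative mice. For both, mice 458 and 475 were the highest of the 13, as for Fkbp5, and mouse 443 lay with the Cre-negative mice for Hif3a. Of 18 chaperones and coregulators 0 passed by edgeR, DESeq2 and voom, with 1 at an unadjusted p under 0.05, and of 5 genes of steroid metabolism and export 0 passed by any of the tools, with 0 at an unadjusted p under 0.05.

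Sgk1 in astrocytes varied more than any other of the 8 genes between amyloid-free mice. It was at 143, 325, 37.1 and 210 CPM in APPPS1 Cre-positive mice and at 76.0, 84.0, 40.6, 156 and 52.2 CPM in APPPS1 Cre-negative mice. It was at 18.2 and 40.1 CPM in amyloid-free Cre-positive mice and at 507 and 627 CPM in amyloid-free Cre-negative mice. The amyloid-free Cre-negative pair lay above all 11 other mice, and the APPPS1 groups overlapped. The log2 change with Cre was 1.07 ± 0.49 in APPPS1 mice (adjusted p = 0.74) and -4.28 ± 0.83 in amyloid-free mice (adjusted p = 0.057). Their difference, 5.35 ± 0.96, passed by a narrow margin (adjusted p = 0.04995).

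That difference was the single pass among the 8 genes, beside 0.155% of genes, and it did not hold widely. Leaving out 1 mouse at a time, it passed only without mouse 439, 460 or 774 and did not pass in the other 10 fits. It passed with DESeq2 and with no filter, but not with voom (adjusted p = 0.21), without TMM (0.056), as labelled (0.91) or with other cells' markers as a covariate, where it was 3.85 (adjusted p = 0.19).

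RNA of other cells also differed between the amyloid-free astrocyte libraries. In amyloid-free astrocyte libraries all 10 oligodendrocyte and all 12 endothelial markers had negative changes with Cre, with medians of -1.69 and -2.55. By edgeR 0 of either list passed, with 2 and 11 at an unadjusted p under 0.05, DESeq2 called 0 and 7, and voom called 0 of either. The oligodendrocyte sum was 4061 and 6709 CPM in amyloid-free Cre-positive mice and 7606 and 23734 CPM in amyloid-free Cre-negative mice. It was 6434, 14402, 2790 and 10941 CPM in APPPS1 Cre-positive mice 443, 458, 460 and 475, whose rank order was the same for Sgk1. It was 4031, 3602, 15481, 12581 and 9781 CPM in APPPS1 Cre-negative mice 439, 447, 469, 774 and 779, whose order was not. Oligodendrocytes are also known to express Sgk1. The endothelial sum was 82.8 and 102 CPM in amyloid-free Cre-positive mice, against 299 and 993 CPM in amyloid-free Cre-negative mice. It was 1023, 576, 235 and 779 CPM in APPPS1 Cre-positive mice 443, 458, 460 and 475. It was 1141, 486, 565, 409 and 420 CPM in APPPS1 Cre-negative mice 439, 447, 469, 774 and 779. Neither order was that of Sgk1. Pericyte and smooth muscle markers had a median change of -3.70 with Cre in amyloid-free astrocytes, with 1 of 9 positive and 0 passing. The immediate early genes had a median change of -1.98 with Cre in amyloid-free astrocytes, with 1 of 21 positive. Of them 0 passed by edgeR and by voom, with 7 at an unadjusted p under 0.05, and DESeq2 called 2. Ier2 (-2.97 ± 0.58, adjusted p = 0.059) was at 2.58 and 2.09 CPM in Cre-positive and 12.5 and 23.9 CPM in Cre-negative amyloid-free mice. The part of these cells or of dissociation in the Sgk1 values was not tested beyond the covariate.

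Amyloid did not move the 8 genes in astrocytes past the threshold. Averaged over Cre 0 of 8 passed (edgeR, with 0 at an unadjusted p under 0.05, and 0 by DESeq2 and voom), beside 0% of 20052 genes, and all 8 changes were negative, from -0.67 ± 0.77 for Fkbp5 to -0.01 ± 0.26 for Tsc22d3. In Cre-negative mice 0 of 8 passed, beside 0% of genes, with 4 at an unadjusted p under 0.05, 1 call by DESeq2 and 0 by voom. Fkbp5 (-2.92 ± 1.04), Sgk1 (-2.80 ± 0.57) and Errfi1 (-0.69 ± 0.30) were lower in each of the 5 APPPS1 mice than in both amyloid-free mice, and Klf9 changed by -0.44 ± 0.16, all with an adjusted p of 1. The share of all genes that separate these 2 groups was not counted, so nothing is read from the separation. In Cre-positive mice 0 of 8 passed, beside 0.663% of genes, with 2 at an unadjusted p under 0.05, 1 call by DESeq2 and 0 by voom: Sgk1 (2.56 ± 0.72, adjusted p = 0.14) and Nr3c1 (-0.32 ± 0.14, adjusted p = 0.42).

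Nr3c1 in astrocytes was at 136, 143, 141 and 102 CPM in APPPS1 Cre-positive mice and at 153 and 163 CPM in amyloid-free Cre-positive mice, without overlap. The share of all genes that separate these groups was not counted either. In Cre-negative mice it was at 142, 115, 119, 126 and 134 CPM with APPPS1 and at 118 and 121 CPM without amyloid. With Cre in amyloid-free astrocytes 0 of 8 passed, beside 0.204% of genes, with 3 at an unadjusted p under 0.05, 1 call by DESeq2 and 0 by voom. Besides Sgk1 these were Errfi1 (-0.98 ± 0.37, adjusted p = 0.28), at 11.0 and 9.95 CPM in Cre-positive and 17.4 and 23.7 CPM in Cre-negative mice, and Nr3c1 (0.40 ± 0.17, adjusted p = 0.32). The amyloid and Cre comparisons share libraries, so these values are not independent of each other.

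**Figure D4:**
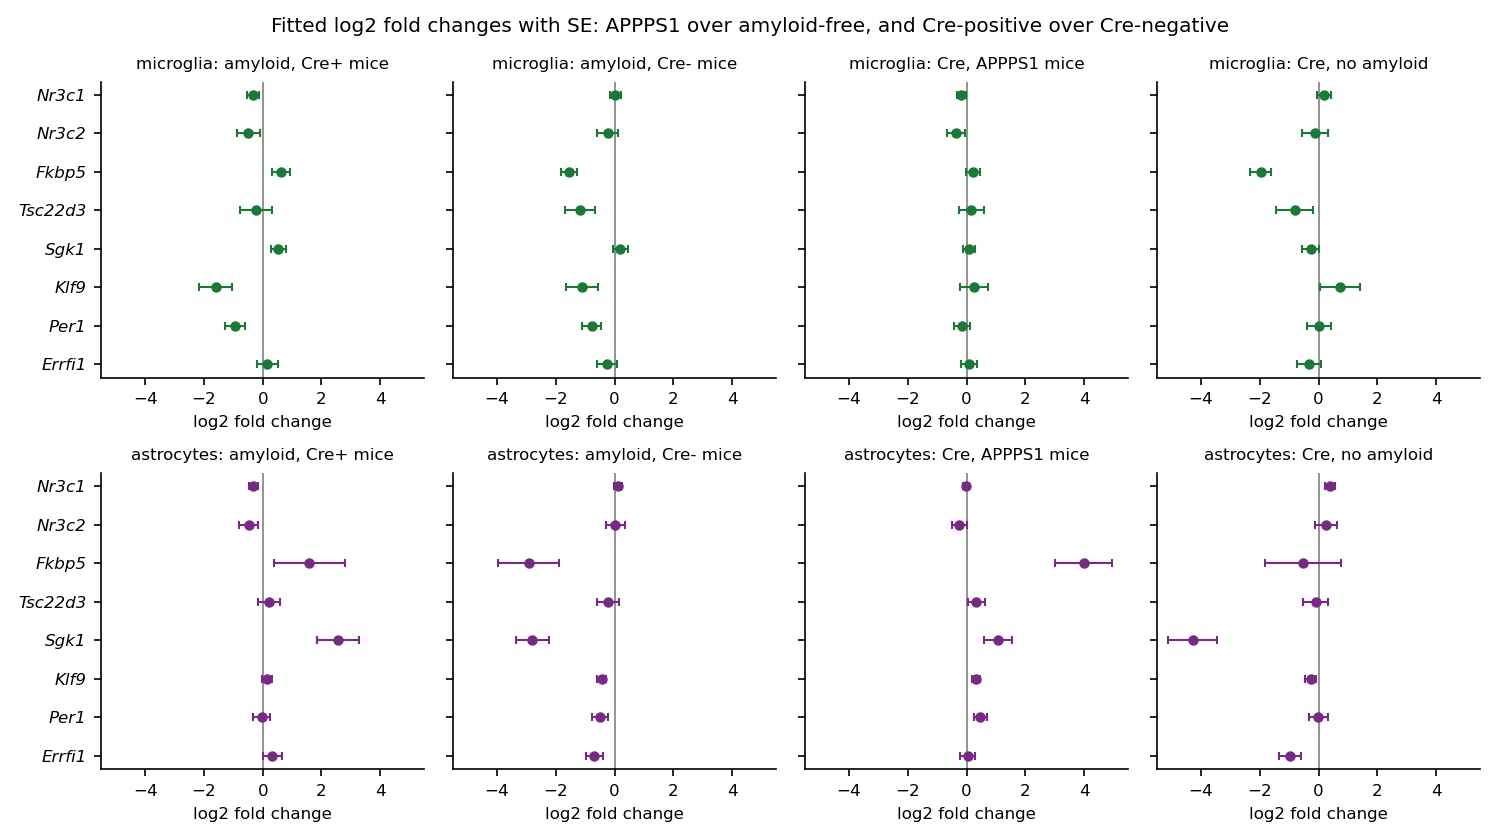
Fitted log2 fold change with SE of each gene in microglia (upper row) and astrocytes (lower row), for APPPS1 over amyloid-free mice within each Cre state and for Cre-positive over Cre-negative mice within each amyloid state. In astrocytes Sgk1 is at 2.56 and -2.80 for amyloid in Cre-positive and Cre-negative mice and Fkbp5 at 3.98 for Cre in APPPS1 mice, with wide errors; the 8 genes stay between -0.35 and 0.25 for Cre in APPPS1 microglia.

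The response to Cre in APPPS1 mice was also compared between the sorts. The log2 change of Fkbp5 with Cre was lower in microglia than in astrocytes by -3.76 ± 0.89 (adjusted p = 0.47). Of the 8 genes 0 passed this comparison by edgeR and by voom, with 1 at an unadjusted p under 0.05, and DESeq2 called 1, beside 0.00463% of genes. With the mouse as a replicate block, the Fkbp5 difference was -3.37 (adjusted p = 1).

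Because both sorts came from each mouse, a level set by circulating hormone could appear in both at once, and this was tested per gene on log2 CPM centred on the group means over 13 mice. The largest Pearson r between microglia and astrocytes of the same mouse was that of Tsc22d3 (r = 0.56, rho = 0.50, exact permutation p = 0.108), followed by Fkbp5 (r = 0.47, rho = 0.41, exact permutation p = 0.300). Without the 2 mice whose centred microglial level lay farthest from the median, r was 0.46 for Tsc22d3 and 0.28 for Fkbp5. Mice that stood out in astrocytes alone were kept. The same step moved Nr3c1 to 0.46, Nr3c2 to 0.12 and Errfi1 to -0.02, so the order of the genes rests on single mice. Klf9 had r = 0.31 and rho = 0.31, Errfi1 r = 0.24 and rho = 0.14, Nr3c1 r = 0.05 and rho = 0.14, Per1 r = -0.21 and rho = -0.23, Sgk1 r = -0.24 and rho = -0.28, and Nr3c2 r = -0.42 and rho = -0.12, with exact permutation p from 0.196 to 0.870. Of the 8 genes 0 passed over the 14837 genes tested, with adjusted p of at least 0.995, beside 0% of genes. The smallest p this exact permutation test can give is 8.7e-05. At that p a single gene could not pass alone over 14837 genes, so nothing is read from the lack of a pass. Over all genes the median r was 0.043, and 730 had an unadjusted p under 0.05.

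Within a sort, some of the genes ran together across mice. Given as a description, over 13 libraries that share their sort and scaling, log2 CPM of Tsc22d3 and Per1 in microglia had r = 0.87, and 0.90 after centring on the group means. Klf9 had r = 0.82 with Per1 and 0.71 with Tsc22d3, and Nr3c1 had r = 0.75 with Nr3c2. Fkbp5 was not part of this set, with r of 0.39 with Tsc22d3, 0.25 with Per1 and 0.15 with Klf9. In astrocytes Fkbp5 went with Klf9 (r = 0.75, and 0.52 after centring), and less with Per1 (0.59, and 0.20) and Tsc22d3 (0.40, and 0.18). Tsc22d3 had r = 0.61 with Klf9 and with Per1, and 0.56 and 0.55 after centring. Sgk1 and Nr3c2 had r = 0.22, and 0.81 after centring.

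**Figure D5:**
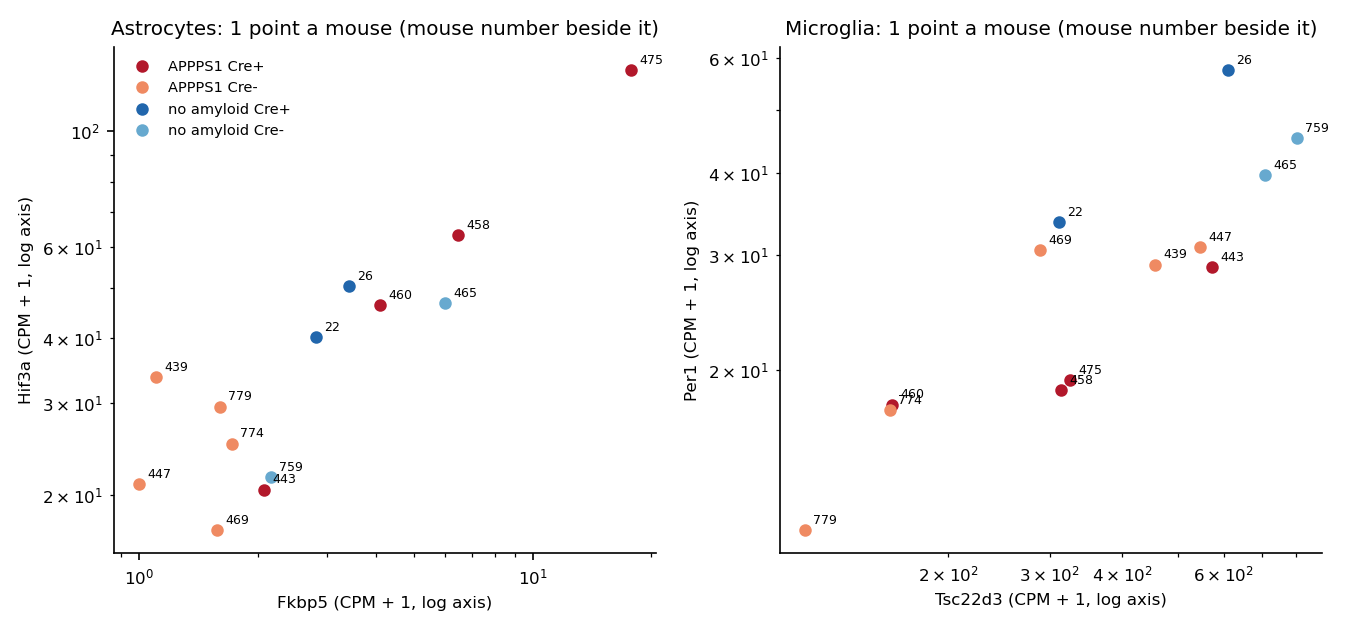
Left, Hif3a against Fkbp5 in astrocytes, and right, Per1 against Tsc22d3 in microglia, both as CPM plus 1 on log axes, 1 point a mouse with its number and coloured by genotype group. Mouse 475 is highest for both astrocyte genes (16.8 CPM of Fkbp5 and 130 CPM of Hif3a); in microglia mouse 779 is lowest for both genes (112 CPM of Tsc22d3 and 10.4 CPM of Per1).

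The genes most like Fkbp5 differed between the sorts. In astrocytes they were Hif3a (r = 0.88 over 13 libraries, 0.88 after centring), the microtubule protein Map7d2 (0.88), the kinase Mast4 (0.87), the heparan sulphate enzyme Ndst1 (0.86) and Zfp846 (0.86). In microglia they were Rcan1, an inhibitor of calcineurin (0.86), Dclre1b (0.83), Ppp1r21 (0.82), Lsg1 (0.81) and Gga3 (0.81). The microglial values rest on mouse 465: without it r was 0.65 for Rcan1, 0.62 for Ppp1r21, 0.32 for Dclre1b, 0.28 for Lsg1 and 0.02 for Gga3. That mouse also had the highest microglial level of Rcan1 (307 CPM against 60.5 to 151 CPM in the other mice). It was highest too for 2 genes picked from the 30 further glucocorticoid-induced genes. These were Cd163, which also marks border macrophages (35.5 CPM against 4.48 to 21.5 CPM), and Sult1a1, a sulphotransferase (137 CPM against 40.9 to 104 CPM). The whole list did not single out mouse 465. Its microglial sum was highest in an APPPS1 Cre-negative mouse, at 9909 CPM, against 8218 and 9720 CPM in the amyloid-free Cre-negative pair. In the astrocytes of mouse 465, Fkbp5 was at 4.97 CPM, the third highest of the 13, and Klf9 at 168 CPM, the highest.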

How the data were processed

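RNA was sequenced from 28 libraries, a microglia and an astrocyte library from each of 14 mice. The deposited values are raw gene counts, made by the authors with bcl2fastq, STAR and Subread featureCounts against GRCm38 and GRCh38, per the submitters' processing notes; the labels do not say whether counting used strand. The count table held 40481 mouse and 55093 human genes, after 258 gene IDs listed on more than 1 row with identical counts were taken once. Human genes took 0.042 to 0.237% of a library's counts and were left out of library sizes and tests.

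Samples were grouped by the labels' genotype and sort, and mouse 459, whose libraries held the genes of the other sort, was left out. The 8 genes and all gene lists were chosen with earlier results of these data known. Counts were tested with edgeR 4.0.16 (R 4.3.3): filterByExpr, TMM scaling, the quasi-likelihood F test over all genes and Benjamini-Hochberg adjustment, called at an adjusted p under 0.05. Each sort was fitted alone with its 13 libraries and 4 genotype groups, and the sorts together with 26 libraries and 8 groups. A standard error is the fold change divided by the square root of F. CPM are counts scaled to 1000000 mouse-gene counts, and exon lengths and coordinates come from GENCODE M21 (GRCm38). Exact permutation tests exchanged whole mice, within genotype groups for the relation between the sorts.

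All 8 genes are named. From each other list, up to 4 passing genes with the largest change, or with none passing the 2 of lowest p, are named, and the 5 genes most like Fkbp5 in each sort whose mean log2 CPM reached 3; exceptions are marked. The mouse number pairs the sorts, since both came from the same animal, and the paired fit used the mouse as a replicate block. Alternatives were DESeq2 1.42.0, limma voom 3.58.1, no TMM, no low-count filter, libraries as labelled, the compared groups alone, a covariate of other cells' markers, the block, and each mouse left out. Each mouse is 1 replicate. Groups without overlap were looked for in the 8 genes alone, and the share of all genes without overlap was not counted. Counting error is largest for Fkbp5 in astrocytes and Klf9 in microglia. The steps were tested on simulated data.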

Additional observations from a re-analysis of the deposited data

Results flagged for a closer look

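In groups of 4 or 5 mice, a sample was marked where its gap to the nearest other mouse was large beside the range of its group; chance marks about 1 in 20 groups, and 32 groups of the 8 genes were tried. Nr3c2 in microglia of APPPS1 Cre-negative mouse 469 was at 10.2 CPM, against 4.04 to 4.79 CPM in the other mice of that group. Per1 in microglia of APPPS1 Cre-positive mouse 443 was at 27.7 CPM, against 16.7 to 18.3 CPM in the others. The change of astrocyte Sgk1 with Cre differed between APPPS1 and amyloid-free mice by 5.35 on the log2 scale (edgeR, adjusted p = 0.04995), with 2 mice in each amyloid-free group.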

How the results depend on the processing

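Log2 changes of single genes were followed only where the unadjusted edgeR p was under 0.05, or between the sorts. Other changes, among them those near 0, were not counted. Those followed turned direction 6 times, under 4 alternatives, and the cause was not tested. With amyloid averaged over Cre in microglia, Fkbp5 was 0.079 without mouse 465 (-0.73 to 0.079 over single mice left out) and Klf9 0.34 with libraries as labelled. With amyloid in Cre-positive mice, Klf9 was 1.79 as labelled and 0.39 with the marker covariate, and Per1 0.29 with the covariate. Nr3c1 between the sorts was -0.26 without TMM. Libraries as labelled include the exchanged pair of mouse 459, which puts astrocyte RNA in the microglia group by construction. Of the other values of the fold changes followed, 603 kept direction and side of the threshold, 54 lost a call and 20 gained one.

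Counts of the 8 genes called moved as follows. Microglia, amyloid averaged over Cre (2): 0 as labelled, 0 with the covariate, and 0 to 3 with 1 mouse left out. Microglia, amyloid in Cre-negative mice (1): 0 as labelled, with voom or with the compared groups alone, and 0 to 1 with 1 mouse left out. Microglia, amyloid in Cre-positive mice (0): 0 to 2 with 1 mouse left out. Microglia, Cre in amyloid-free mice and the difference of the Cre effects (0 each): 1 with DESeq2, 1 with no filter, and 0 to 1 with 1 mouse left out. Astrocytes, amyloid in Cre-negative, amyloid in Cre-positive and Cre in APPPS1 mice (0 each): 1 with DESeq2, and for amyloid in Cre-positive mice 0 to 1 with 1 mouse left out (1 without mouse 460). Astrocytes, Cre in amyloid-free mice (0): 1 with DESeq2, 1 with no filter, and 0 to 1 with 1 mouse left out (1 without mouse 439, 458 or 460). Astrocytes, difference of the Cre effects (1): 0 without TMM, as labelled, with voom or with the covariate, and 0 to 1 with 1 mouse left out. The Cre effect in APPPS1 mice between the sorts (0) was 1 with DESeq2. Between the sorts, 7 or 8 of 8 were called under every alternative run. With the mouse as a replicate block it was 7, since Nr3c1 (0.19, adjusted p = 0.066) was lost, and 0 for the Cre effect between the sorts; the paired fit changed no other call of the 8 genes.

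Counts over all genes ranged widely across alternatives. Microglia gave 1 to 2722 for amyloid averaged over Cre (1685), 0 to 461 in Cre-negative (55) and 0 to 2407 in Cre-positive mice (1240). For Cre they gave 1 to 6 in APPPS1 (1), 0 to 849 in amyloid-free mice (2) and 0 to 107 for the difference (0). Astrocytes gave 0 to 254 (0), 0 to 18 (0) and 0 to 866 (133) for amyloid, and 1 to 36 (2), 0 to 898 (41) and 0 to 579 (31) for Cre, in the same order. Between the sorts the range was 15554 to 17019 (16535), and 0 to 79 (1) for the Cre effect. Amyloid-free groups of 2 mice, low Fkbp5 counts in astrocytes and unknown time of day limit every value here.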
